A study of Mus musculus with 11 samples.

Results

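Heat shock proteins and other chaperones were followed at the mRNA level, through 10 genes, in the cortex of 5xFAD mice with and without Abi3. The genes are Hspa8, Hspa5, Hsp90aa1, Hsp90ab1, Hsph1, Dnaja1, Dnajb1, Hspa4, Hspd1 and Hspa1b, taken by symbol as 10 of the 53700 genes counted. The 11 libraries came from female mice aged 8 months, 6 of them Abi3 wildtype (Abi3_WT) and 5 homozygous for the Abi3 knockout (Abi3_KO), and each library is 1 animal. All 11 mice carried the 5xFAD transgenes, human genes with familial Alzheimer's disease mutations that the Thy1 promoter drives in neurons, so that amyloid is deposited in the brain. There was no group without the transgenes, and each comparison is therefore between Abi3 genotypes on an amyloid background. The labels give the strain as C57BL/6. The Abi3 deletion was made in C57BL/6N, the transgenes came on a B6SJL background, and the experimental mice were heterozygous for a natural Trem2 variant of that background.

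Chaperones bind proteins that are not folded and help them fold, refold or reach the proteasome. HSP70 proteins (Hspa8, Hspa5, Hspa1b) bind and release short unfolded stretches with ATP, J-domain proteins (Dnaja1, Dnajb1) bring clients to them and start the ATP step, and HSP110 proteins (Hsph1, Hspa4) exchange the nucleotide so that the client is let go. HSP90 proteins (Hsp90aa1, Hsp90ab1) take kinases, steroid receptors and other clients at a later stage of folding, and the chaperonin Hspd1 encloses proteins inside mitochondria together with its lid, Hspe1. Some of these genes are transcribed at all times and others mainly after stress, when heat shock factor 1 binds heat shock elements in their promoters, whereas Hspa5 answers to the unfolded protein response of the endoplasmic reticulum (ER). In neurons, these proteins are known for handling aggregation-prone proteins.

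QuantSeq reads the end of each transcript next to the poly(A) tail, and the values below are read counts per gene, divided by a size factor of each library (normalized read counts) unless CPM (counts scaled to the library's total of reads in genes) is named. The libraries held 3202310 to 5501958 reads in genes, and 3 reads, taken as the smallest amount told from none, were 0.545 to 0.937 CPM. Abi3 had 10 to 38 reads per Abi3_WT animal and 0 to 2 per Abi3_KO animal, as the labels require. The 2 genotypes also differed in a measure of the libraries themselves. Reads that the counter matched to no gene, called reads outside genes here, can include reads of introns or of the opposite strand. Per 100 reads in genes they came to 65.9 ± 3.67 in Abi3_WT (SD, n = 6, range 59.3 to 68.8). In Abi3_KO they came to 54.0 ± 4.99 (SD, n = 5, range 49.8 to 62.5, exact two-sided permutation test, p = 0.00649, 462 splits). A fit with this measure as a covariate therefore cannot separate it well from genotype. Totals of reads in genes did not differ beyond their spread (exact permutation test, p = 0.152).

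Of the 10 genes, Hspd1 and Hsp90aa1 were higher in Abi3_KO cortex by DESeq2 with Benjamini-Hochberg adjustment over all genes tested, and no gene was lower. The same threshold was passed by 95 of 17626 genes tested (0.539%), in that direction by 60 (0.340%), or by 60 of the 6487 genes abundant enough for DESeq2 to give an adjusted p (0.925%). All 10 genes were tested and 9 had an adjusted p, the exception being the rare Hspa1b. At an unadjusted p under 0.05, 4 of the 10 were higher (Hspd1, Hsp90aa1, Hspa4 and Hsp90ab1), against 4.14% of all genes tested and 7.45% of those with an adjusted p, and 0 were lower, against 4.44% and 4.36%. The log2 fold change was above 0 for 9 of the 10, against 49.5% of genes tested and 56.1% of those with an adjusted p. Its median over the 10 genes was 0.23, and over all genes tested it was -0.0033. With reads outside genes as a covariate, the log2 fold change was below 0 for Hspa5 (-0.59), Hsph1 (-0.14) and Hspa1b (-1.30). The calls depended on the test: edgeR's quasi-likelihood test and limma voom called 0 of the 10, with 5 and 6 of them higher at an unadjusted p under 0.05.

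**Figure D1:**
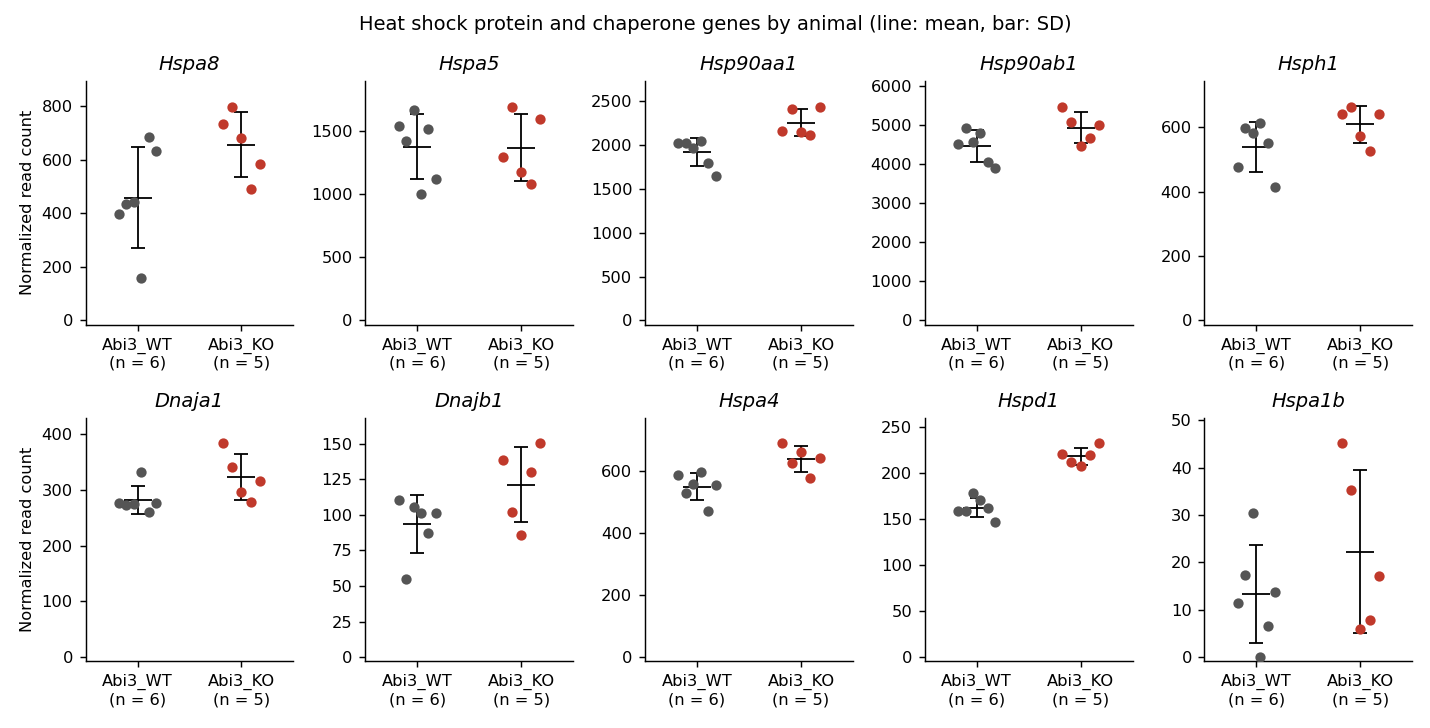
Normalized read count (vertical axis, from 0) of each of the 10 genes in every animal, Abi3_WT in grey (n = 6) and Abi3_KO in red (n = 5), with the mean as a line and the SD as a bar. The groups do not overlap for Hspd1 and Hsp90aa1, and they overlap for the other 8 genes. Among Abi3_WT animals, Hspa1b and Hspa8 are the most scattered relative to their means.

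Hspd1 (HSP60), the mitochondrial chaperonin, lies on the reverse strand at chr1:55116989-55171038 (GRCm39). Its normalized read counts in Abi3_WT ran from 147 through a median of 160.4 to 178. In the Abi3_KO animals they were 220.2, 212, 208, 219 and 232. Every knockout value was above every wildtype value, which was also true in one or the other direction for 183 of 17626 genes (1.04%) and, with the knockout higher, for 1.08% of those with an adjusted p. The means were 162 ± 10.6 (SD, n = 6) and 218 ± 9.31 (SD, n = 5), a log2 fold change of 0.43 with SE 0.112 (1.34-fold, 95% interval 1.15 to 1.56, DESeq2 adjusted p = 0.0206). These values rest on 139 to 237 reads per animal. The adjusted p was 0.190 in edgeR and 0.203 in limma voom, and it missed the threshold without Abi3_WT replicate 5 (0.0558), Abi3_WT replicate 6 (0.0804) or Abi3_KO replicate 2 (0.0524), at log2 fold changes of 0.40 to 0.44. It also missed with every library thinned to the smallest total of reads in genes (0.0848) and with reads outside genes as a covariate (0.999986, log2 fold change 0.35). That covariate differs between genotypes and left 3 genes called of all, so that a miss there cannot decide about 1 gene.

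Hspd1 lies head to head with Hspe1, the gene of the chaperonin's lid, which is transcribed in the opposite direction. The 107 bases between the first exons of their canonical transcripts (chr1:55127184-55127290, GRCm39) are shown because both transcripts start beside them, with Hspd1 to the left and Hspe1 to the right. Other annotated transcripts start elsewhere, and the annotated spans of both genes reach into this stretch. Capitals mark 18 bases that hold 2 overlapping matches to a heat shock element of 3 units, searched as GAANNTTCNNGAA on both strands.
Hspd1 and Hspe1: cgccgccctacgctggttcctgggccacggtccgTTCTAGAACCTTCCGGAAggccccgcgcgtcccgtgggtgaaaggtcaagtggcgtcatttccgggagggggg
Of 32851 RefSeq promoter sequences of 300 bases (250 before to 50 after each start, from a GRCm38.p6 table), 0.603% held such a match. A match of letters is a description of the sequence and not a measured binding site.

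Hspe1, named here after its values were seen, was not called. It had 163 ± 23.8 normalized reads in Abi3_WT (SD, n = 6) and 168 ± 39.8 in Abi3_KO (SD, n = 5), a log2 fold change of 0.04 with SE 0.164 (0.825- to 1.29-fold, DESeq2 adjusted p = 0.947). Animal by animal, the knockout values of Hspe1 were 177, 168, 217, 106 and 171, around a wildtype range of 127 to 191. The log2 ratio of Hspd1 to Hspe1 was 0.0062 ± 0.245 in Abi3_WT and 0.42 ± 0.401 in Abi3_KO. This difference of 0.41 did not pass the threshold (exact two-sided permutation test, p = 0.0606, 0.182 after adjustment over 3 ratios). Hspd1 is among the 16 genes of mitochondrial folding and quality control, of which 9 got a DESeq2 adjusted p. Hspd1 was the only one called, and the median log2 fold change of the 16 was 0.01, with 8 above and 8 below 0. Clpx and Lonp1, parts of mitochondrial proteases, had log2 fold changes of -0.45 and 0.22, and Grpel1, a nucleotide exchange factor, had 0.22.

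Hsp90aa1, the stress-inducible cytosolic HSP90, lies at chr12:110656842-110669166 on the reverse strand. In Abi3_WT its normalized read counts ran from 1649 through 1995 to 2043. In Abi3_KO they were 2165, 2409.9, 2149, 2118 and 2439. The groups did not overlap, although the highest wildtype and the lowest knockout animal were close. The means were 1917 ± 160.5 (SD, n = 6) and 2256 ± 155 (SD, n = 5), a log2 fold change of 0.23 with SE 0.0692 (1.18-fold, 95% interval 1.07 to 1.29, DESeq2 adjusted p = 0.0489). This value sat at the threshold: the adjusted p was 0.314 in edgeR and 0.165 in limma voom. It passed in 4 of the 11 leave-one-out fits. It missed without Abi3_WT replicates 3, 5 or 6 (0.0568, 0.163 and 0.160) and without Abi3_KO replicates 1, 2, 3 or 5 (0.0748, 0.211, 0.0536 and 0.135). It also missed with TMM factors (0.0720), without a filter on low counts (0.0526) and with independent filtering off (0.118). The same held with the replicate block (0.224) and after thinning (0.0771), and the log2 fold changes in these fits were 0.19 to 0.23. With reads outside genes as a covariate the log2 fold change was 0.11 (DESeq2 adjusted p = 0.999986). That covariate differs between genotypes and left 3 genes called of all, so that a miss there cannot decide about 1 gene.

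Hsp90ab1, the constitutive cytosolic HSP90, was the most abundant of the 10 and gave 42.3% to 48.8% of their reads in each library. Its normalized read counts were 3895 at the lowest, 4533 at the median and 4933 at the highest in Abi3_WT. In Abi3_KO they were 5467, 5066, 4458, 4659 and 5001.5, so that 3 of 5 knockout animals were above the highest wildtype animal. This is a log2 fold change of 0.15 with SE 0.0699 (1.11-fold, 95% interval 1.01 to 1.22), and the adjusted p was 0.366 by DESeq2. The log2 ratio of Hsp90aa1 to Hsp90ab1 differed between genotypes by 0.09 (exact permutation test, p = 0.132, adjusted p = 0.198), so that a change in the balance of the inducible and constitutive forms was not shown. The HSP90 proteins of other compartments had log2 fold changes near 0, with 0.0031 for Hsp90b1 of the ER and -0.04 for Trap1 of mitochondria (DESeq2 adjusted p = 0.995 and 0.966).

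**Figure D2:**
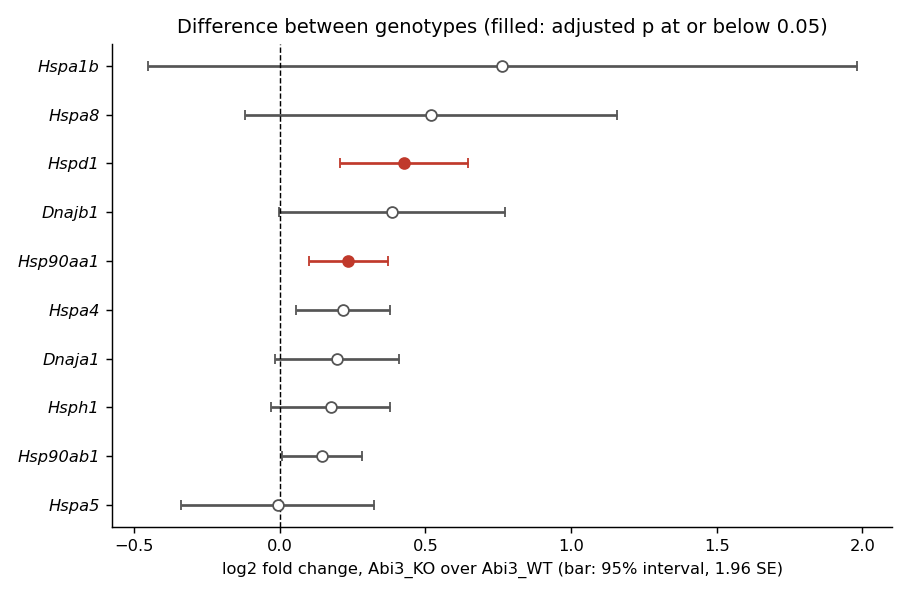
Log2 fold change of Abi3_KO over Abi3_WT for the 10 genes (horizontal axis), with 95% intervals, filled where the DESeq2 adjusted p was at or below 0.05. Hspd1 (0.43) and Hsp90aa1 (0.23) are filled, Hspa5 sits at -0.01, and the interval of Hspa1b runs from -0.45 to 1.98.

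Hspa4 and Hsph1 are HSP110 proteins, nucleotide exchange factors of HSP70. Hspa4 (chr11:53150641-53191531) had 472, 557 and 595 normalized reads at the lowest, median and highest of Abi3_WT. Its Abi3_KO values were 688, 624, 659, 576 and 641, and 4 of the 5 were above the highest wildtype animal. Its log2 fold change was 0.22 with SE 0.0825 (1.16-fold, 95% interval 1.04 to 1.30), with an unadjusted DESeq2 p of 0.00819 and an adjusted one of 0.187. Abi3 also lies on chromosome 11, so that Hspa4 is the only one of the 10 genes on the chromosome that carries the deletion. Hsph1 (chr5:149537636-149560156) ran from 414 through 567 to 614 in Abi3_WT. It was 642, 665, 574, 526 and 641 in Abi3_KO, 3 of them above all wildtype animals. Its log2 fold change of 0.17 with SE 0.104 did not pass the threshold (DESeq2 adjusted p = 0.515). The log2 fold change of Hsph1 was 0.11 without Abi3_WT replicate 6 and -0.14 with reads outside genes as a covariate. Hspa4l, the closest relative of Hspa4, had a log2 fold change of 0.18 with SE 0.101 (DESeq2 adjusted p = 0.472), and the log2 ratio of Hspa4 to Hspa4l differed by 0.05 between genotypes (exact permutation test, p = 0.723).

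Dnaja1 and Dnajb1 are J-domain partners of cytosolic HSP70, and Dnajb1 (HSP40) is strongly heat-inducible. Dnaja1 (chr4:40722056-40737149) ran from 260.01 through 276 to 332 normalized reads in Abi3_WT. In Abi3_KO it was 384, 341, 296, 279 and 316. Its log2 fold change was 0.20 with SE 0.109 (DESeq2 adjusted p = 0.475), and 1 wildtype animal, replicate 4, stood at 332 while the other 5 did not exceed 277. Dnajb1 (chr8:84334811-84339820) ran from 54.9 through 101 to 111 in Abi3_WT. It was 138, 102, 85.9, 129.9 and 150.2 in Abi3_KO, 3 of them above all wildtype animals. Its log2 fold change was 0.38 with SE 0.198 (1.31-fold, 95% interval 0.998 to 1.71, DESeq2 adjusted p = 0.425), at 72 to 132 reads per animal.

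Hspa5 (BiP), the HSP70 of the ER and the sensor-bound chaperone of the unfolded protein response, had the smallest difference of the 10. At chr2:34661982-34668880, it ran from 1002 through 1465 to 1663 normalized reads in Abi3_WT. In Abi3_KO it was 1297, 1693, 1178, 1081 and 1598. Both genotypes spanned nearly the same range, at 1376 ± 259 (SD, n = 6) and 1369 ± 265 (SD, n = 5). The log2 fold change was -0.01 with SE 0.169 (DESeq2 adjusted p = 0.995), with a 95% interval of 0.79- to 1.25-fold in this fit. With reads outside genes as a covariate it was -0.59 (DESeq2 adjusted p = 0.752). The sign turned in 7 of the 11 leave-one-out fits (-0.0952 to 0.0682 on the log2 scale).

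Promoter sequences were searched for an ER stress response element and for heat shock elements. Stretches with a match are shown with the searched motif in capitals. The ER stress response element was searched as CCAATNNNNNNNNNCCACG and was held by 0.119% of the promoter sequences. Hspa5 has it at chr2:34662032-34662060 on the forward strand. Hsp90b1, its ER partner, has a match at chr10:86541497-86541525 on the reverse strand and another one on the opposite strand nearer the start.
Hspa5: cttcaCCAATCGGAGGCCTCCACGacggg
Hsp90b1: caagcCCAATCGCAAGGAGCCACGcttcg
The heat shock element of 3 units was found in 2 of the 7 genes with a promoter sequence, Hspd1 and Hsph1. A shorter form of 2 units, GAANNTTC, which lies within the longer one, was held by 7.86% of all promoter sequences and by 4 of the 7 genes, Dnaja1 and Hspa1b in addition. A gene was counted if any of its promoter sequences matched, whereas the share is per sequence. Matches to the shorter form were in 1 of 3 sequences of Dnaja1, 1 of 2 of Hspd1, 2 of 2 of Hsph1 and 1 of 1 of Hspa1b. The stretches are from chr5:149559752-149559773 on the reverse strand for Hsph1, chr4:40722333-40722362 on the forward strand for Dnaja1 and chr17:35178300-35178329 on the reverse strand for Hspa1b. Hsph1 is shown with the longer form, read from the opposite strand as TTCNNGAANNTTC, and Dnaja1 and Hspa1b with the shorter one.
Hsph1: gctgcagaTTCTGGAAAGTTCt
Dnaja1: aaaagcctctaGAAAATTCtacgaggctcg
Hspa1b: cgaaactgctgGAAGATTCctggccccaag
Promoter sequences of Hspa8, Hsp90aa1 and Hsp90ab1 were not analysed here. Among the 7 genes, the called Hspd1 holds the longer element, and so does Hsph1, which did not pass the test. Neither form was found in the 2 promoter sequences of the heat-inducible Dnajb1 or in the 1 of Hspa4.

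Hspa1b (chr17:35175412-35178214), the HSP70 that cells make mainly after heat or other stress, was the rarest of the 10. The Abi3_WT animals had 10, 26, 29, 0, 9 and 13 raw reads of it, where 0 allows up to 0.707 CPM in that library. The Abi3_KO animals had 43, 35, 5, 7 and 15 raw reads. Values in each group spread over nearly all of the common range, with a coefficient of variation of 78.0% in Abi3_WT and 77.5% in Abi3_KO. Its log2 fold change was 0.76 with SE 0.621 (an unadjusted DESeq2 p of 0.218 and no adjusted p), and the difference did not pass any test run. The log2 fold change was 0.34 without Abi3_KO replicate 1, 1.19 without Abi3_WT replicate 3 and -1.30 with reads outside genes as a covariate.

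Hspa1a, the neighbouring gene for a near-identical HSP70, was more even. Its promoter sequence differs from that of Hspa1b at 4 of 300 bases, and the stretch with the heat shock element is the same in both. The last 500 bases of the transcripts, where QuantSeq reads fall, had no match to each other of at least 95% identity over 75 bases, so that reads there can be told apart. Normalized read counts of Hspa1a ran from 12.7 through 18.5 to 38.1 in Abi3_WT. In Abi3_KO they were 51.4, 42.4, 31.0, 35.01 and 34.1. All 5 knockout animals were above 5 of the 6 wildtype animals, the exception being Abi3_WT replicate 2 at 38.1. This gave a log2 fold change of 0.89 with SE 0.325 (1.85-fold, 95% interval 1.19 to 2.88), with an unadjusted DESeq2 p of 0.00636, too few reads for an adjusted p, and an edgeR adjusted p of 0.342.

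Hspa8 (HSC70), the constitutive cytosolic HSP70, varied more among wildtype animals (coefficient of variation 41.1%) than the other genes except Hspa1b. At chr9:40711630-40731039, its normalized read counts in Abi3_WT were 158 at the lowest, 439 at the median and 687 at the highest. In Abi3_KO they were 733, 799, 680.4, 490.2 and 584. The knockout animals were all above the wildtype mean, but the ranges overlapped. Its difference was a log2 fold change of 0.52 with SE 0.326 (1.43-fold, 95% interval 0.920 to 2.23, DESeq2 adjusted p = 0.542). The log2 fold change was 0.34 without Abi3_WT replicate 4 and 0.03 with reads outside genes as a covariate.

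Counts of Hspa8 are uncertain because other places in the genome hold nearly the same sequence. In the last 500 bases of its transcript, 84.0% of windows of 75 bases had an exact copy elsewhere. Hspd1 was next at 52.3%, through pseudogene copies with 21 reads in all libraries together, and the other 8 genes had 0.0%. The closest copy of Hspa8 is the pseudogene Gm15459 on chromosome 5, chosen here after its values were seen. It matches all 500 bases of Hspa8 except for 3 extra bases, which lie 8 bases after the stop codon of Hspa8 and 75 bases before the transcript's end. The stretch around them is shown from chr9:40716407-40716433 on the forward strand and chr5:5831592-5831621 on the reverse strand (GRCm39), with the 3 extra bases in capitals.
Hspa8: ggattaagtcagtccaagaaggtgtag
Gm15459: ggattaagtcagtccAAGaagaaggtgtag

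Reads given to Gm15459 fell into separate sets of animals. The Abi3_WT animals had 68, 127, 53, 128, 2 and 5 raw reads of it. The Abi3_KO animals had 0, 1, 0, 93 and 88. The 6 animals with 53 to 128 reads (4 wildtype, 2 knockout) had 158 to 584 normalized reads of Hspa8. The 5 animals with 0 to 5 reads (2 wildtype, 3 knockout) had 633 to 799. The summed normalized counts of both were 514 ± 148 in Abi3_WT (SD, n = 6; range 267 to 689) and 699 ± 75.3 in Abi3_KO (SD, n = 5; range 595 to 799.9), with a log2 ratio of the means of 0.44. The part of the copy in the Hspa8 difference between genotypes was not tested.

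**Figure D3:**
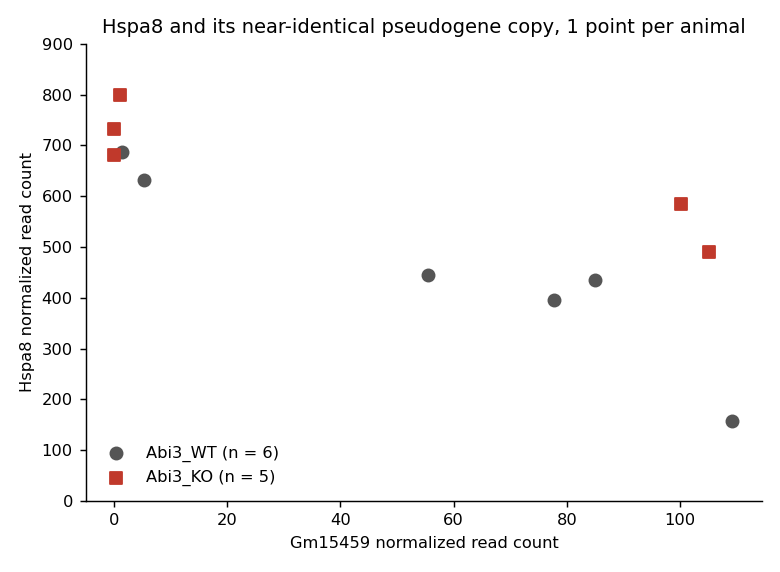
Normalized read count of Hspa8 (vertical axis, from 0) against that of its pseudogene copy Gm15459 (horizontal axis) in each animal, Abi3_WT as grey circles (n = 6) and Abi3_KO as red squares (n = 5). The 6 animals with 53 to 128 raw reads of Gm15459 have 158 to 584 normalized reads of Hspa8, and the other 5 have 633 to 799.

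Levels of the 10 genes kept nearly the same order in both genotypes. QuantSeq counts 1 place per transcript, so that CPM is given as such and not divided by transcript length. In Abi3_WT, Hsp90ab1 was at 1204 ± 117 CPM, Hsp90aa1 at 518 ± 44.1 and Hspa5 at 371 ± 64.0 (SD, n = 6 each), and these 3 did not overlap with their neighbours in the order. Hspa4 (148 ± 13.8), Hsph1 (146 ± 21.6) and Hspa8 (124 ± 50.4) overlapped and have no order among themselves, and the animals' values of Hspa8 also reached those of Dnaja1 (76.4 ± 8.09). Hspd1 (43.9 ± 2.87), Dnajb1 (25.3 ± 5.56) and Hspa1b (3.57 ± 2.78) followed. In Abi3_KO, Hspa8 had the fourth highest mean, at 173 ± 29.0 CPM (SD, n = 5), and the rest of the order was the same. All 10 genes together took 0.243% to 0.284% of the reads in genes in Abi3_WT and 0.266% to 0.319% in Abi3_KO, and these ranges overlap.

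Variation from animal to animal was shared by some of the 10 genes, described here over 11 animals as Pearson r of the deviations from each genotype's mean of log2(normalized count + 1). Animals share no library, but such correlations can carry the depth and tissue composition of each library. Of 36 pairs among the 9 genes with a mean of at least 50, 7 had r above 0.5 and 13 were below 0. Hsp90ab1 with Hsph1 (0.74), Hsp90aa1 with Hsp90ab1 (0.73) and Hsp90aa1 with Hsph1 (0.72) led. Hspd1 was at 0.65 with Hsph1 and 0.56 with Hsp90aa1. Hspa8 had r below 0 with 7 of the other 8, its only positive value being 0.49 with Hspa5.

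Among 7780 genes with a mean of at least 50, the 3 most like each gene in this respect had r of 0.87 to 0.95. For Hsp90aa1 they were Urgcp, Spred1 and Fkbp4 (0.91, 0.88 and 0.88), the last of which encodes a co-chaperone of HSP90. For Hsp90ab1 they included Ube2a and Med14, for Hsph1 Vapa, Fbrsl1 and Rprm, and for Hspd1 Gm49336, Rnf121 and Phc3. For Hspa8 they were Mrps5, Gpr27 and Amt, for Hspa5 Lrrtm1, Negr1 and Amot, and for Hspa4 Tigar, Coro1c and Nicn1. For Dnaja1 they were Eif3g, Spats2l and Micu3, and for Dnajb1 Jdp2, Mast3 and Acap2. With 11 animals and 7780 genes, values of this size are the tops of long lists and are given only as descriptions.

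The wider chaperone network, 97 other genes in 8 families, had 96 genes matched and 90 tested, of which 69 got a DESeq2 adjusted p. In either direction 0 passed the DESeq2 threshold, which 0.539% of all genes tested passed (edgeR 0, limma voom 0). At an unadjusted DESeq2 p under 0.05, 10 were higher and 1 was lower, against 4.14% higher and 4.44% lower of all genes tested and 7.45% and 4.36% of those with an adjusted p. In edgeR 9 were higher and 3 lower, and in limma voom 9 were higher and 2 lower. No share over all genes was computed for these tools. A log2 fold change above 0 was found for 67 of the 90 (74.4%), with a median of 0.13. The share was 49.5% of all genes tested and 56.1% of those with an adjusted p. Hsbp1, a small protein that binds heat shock factor 1, came nearest to the threshold, at 296 ± 28.8 against 394 ± 84.8 normalized reads and a log2 fold change of 0.41 with SE 0.128 (DESeq2 adjusted p = 0.0769). It passed without Abi3_WT replicate 2 (0.0274), Abi3_KO replicate 1 (0.0499) or Abi3_KO replicate 4 (0.0191). Cct5, a subunit of the cytosolic chaperonin TRiC, was at 160.2 ± 19.8 against 216 ± 39.5 and a log2 fold change of 0.44 with SE 0.143 (DESeq2 adjusted p = 0.0990), and it passed without Abi3_KO replicate 3 (0.0210).

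Of all genes tested, 49.5% had a log2 fold change above 0, and of those with an adjusted p 56.1%. By family, the log2 fold change was above 0 in 8 of 9 chaperonin genes (median 0.14), with Cct3, Cct2 and Cct8 at 0.27, 0.18 and 0.13 after Cct5. It was above 0 in 14 of 17 HSP90 co-chaperones (median 0.17), which include Cdc37l1 at 0.17, Sugt1 at 0.23, Fkbp5 at 0.47 and Ttc4 at -0.35. The same held for 11 of 13 HSP70 co-chaperones and exchange factors (median 0.16), with Bag5 at 0.31, Hspbp1 at 0.18 and Bag3 at 0.43. In the other HSP70 and HSP110 genes it was above 0 in 7 of 9 (median 0.21), with Hspa2 at 0.38 and the rare Hspa12b at 0.85. J-domain genes were more even, with 19 of 30 above 0 (median 0.09). Among them, Dnajc16 was at 0.33, Dnajb2 at 0.27, Dnajb11 of the ER at -0.34 and Dnajb3, at means of only 2.12 and 7.84 normalized reads, at 1.89. Prefoldin had 4 of 6 above 0, with Vbp1 at 0.39, Pfdn5 at 0.16, Pfdn2 at 0.13 and Pfdn6 at -0.29. Of 4 small heat shock genes tested, the lens and glial protein Cryab was at 0.31 (DESeq2 adjusted p = 0.265), Hspb1 at -0.77, Hspb6 at 0.17 and Hspb8 at 0.05. None of the genes named by family had an adjusted p at or below 0.05. Fkbp5, Bag3, Hspa12b, Dnajb3, Hspb1, Hspb6 and Hspb8 got no DESeq2 adjusted p, so that DESeq2 could not call them.

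**Figure D4:**
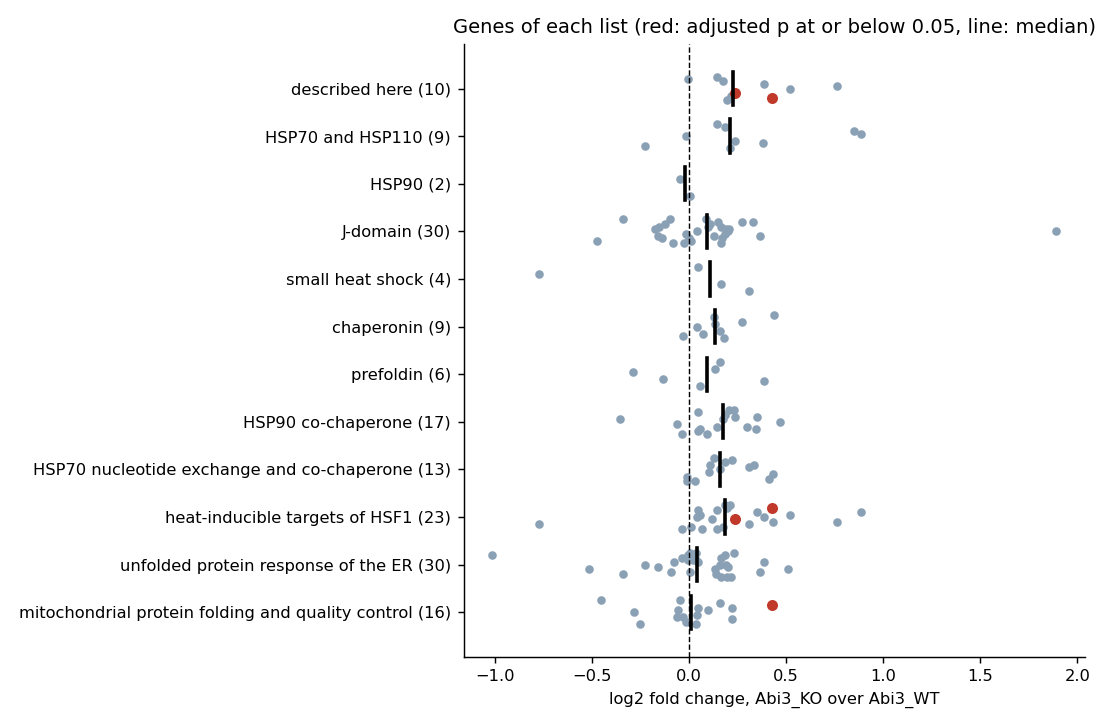
Log2 fold change of Abi3_KO over Abi3_WT (horizontal axis) for each tested gene of the 10 described and of the other lists, with the number tested in brackets, the median as a black line and genes with a DESeq2 adjusted p at or below 0.05 in red. Medians range from -0.02 to 0.23, and the red points are Hspd1 and Hsp90aa1, each also drawn in the lists they belong to.

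Known heat-inducible targets of heat shock factor 1 were compared with genes of the ER response, since 8 of the 10 belong to the first programme and Hspa5 to the second. Of 23 targets tested, 2 were called (Hspd1 and Hsp90aa1), 5 were higher at an unadjusted p under 0.05 and 21 had a log2 fold change above 0 (median 0.19), where the shares of all genes tested were 0.340%, 4.14% and 49.5%, and of those with an adjusted p 0.925%, 7.45% and 56.1%. This list holds 8 of the 10 genes described above and is no independent evidence of their direction. Of 30 genes of the unfolded protein response of the ER, 21 got a DESeq2 adjusted p, and 0 were called by DESeq2, edgeR or limma voom. A log2 fold change above 0 was found for 20 of the 30 (66.7%, median 0.04). At an unadjusted p under 0.05, 1 was higher and 1 lower in each of the 3 tools. In DESeq2 these 2 were Herpud1, an ER-associated degradation factor, at 0.39 and Dnajb11 at -0.34. The stress kinase Eif2ak3 at 0.51 and the disulfide isomerase Pdia3 at 0.20 came next. The heat shock factors themselves, Hsf1 (0.17), Hsf2 (0.0042) and Hsf4 (-0.12), and the cold-inducible Cirbp (-0.13) and Rbm3 (-0.05) had unadjusted DESeq2 p of 0.537 or more.

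Cell composition was checked with marker lists, since in bulk tissue fewer cells of a type and less RNA per cell cannot be told apart. All markers of neurons, astrocytes, microglia, oligodendrocytes and endothelium were detected, as the label of cortex requires, and 0 markers of any list were called by DESeq2. Only markers with an adjusted p could be called, which were all those of neurons, astrocytes and oligodendrocytes. For microglia they were 4 of 6, for endothelium 3 of 4, for striatal neurons 4 of 6, for choroid plexus 1 of 5 and for erythrocytes 1 of 4. Neuronal markers had log2 fold changes above 0 in 5 of 7 (median 0.11), with Stmn2 at 0.30 (DESeq2 adjusted p = 0.0641), Snap25 at 0.18, Syt1 at 0.11 and Gad2 at -0.18. Their summed level was 4007 to 4965 CPM in Abi3_WT and 4508 to 5074 CPM in Abi3_KO. Astrocyte markers were above 0 in 1 of 6, Gfap at 0.24, with Slc1a3 at -0.15, Aldoc at -0.13 and Aqp4 at -0.11, and their sums were 3709 to 4292 CPM in Abi3_WT and 3597 to 4167 CPM in Abi3_KO. Oligodendrocyte markers were above 0 in 5 of 5 (Mog 0.30, Mobp 0.12, Mag 0.10), at 1969 to 2645 CPM and 1999 to 2823 CPM. Microglial markers were above 0 in 5 of 6 (Aif1 0.49, Tmem119 0.22, Cx3cr1 0.08), at 370.4 to 496 CPM and 383 to 524 CPM. Endothelial markers were above 0 in 1 of 4 (Flt1 0.27, Cldn5 -0.40, Pecam1 -0.12, Slco1a4 -0.07), at 139.8 to 206 CPM and 164 to 190.2 CPM.

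Markers of neighbouring tissue and blood varied between animals. Choroid plexus markers summed to 15.6 to 985 CPM in Abi3_WT and 23.1 to 640 CPM in Abi3_KO (Ttr 0.48, Folr1 1.04, Kcnj13 -0.32 and Clic6 -0.68 on the log2 scale). Striatal markers were below 0 in 6 of 6 (median -0.24; Drd2 -0.59, Drd1 -0.18, Adora2a -0.30), at 448 to 699 CPM and 369.6 to 603 CPM. Erythrocyte markers were below 0 in 4 of 4 (Hba-a1 -1.58, Hbb-bs -0.995, Hbb-bt -1.21, Hba-a2 -0.40), at 6.73 to 95.9 CPM and 2.09 to 106 CPM. The part of cell composition in the differences of Hspd1 and Hsp90aa1 was not tested. With reads outside genes as a covariate beside genotype, DESeq2 called 0 of the 10 genes and 3 of all 17626. The log2 fold changes were 0.35 for Hspd1, 0.11 for Hsp90aa1, 0.05 for Hsp90ab1 and 0.03 for Hspa8.

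**Figure D5:**
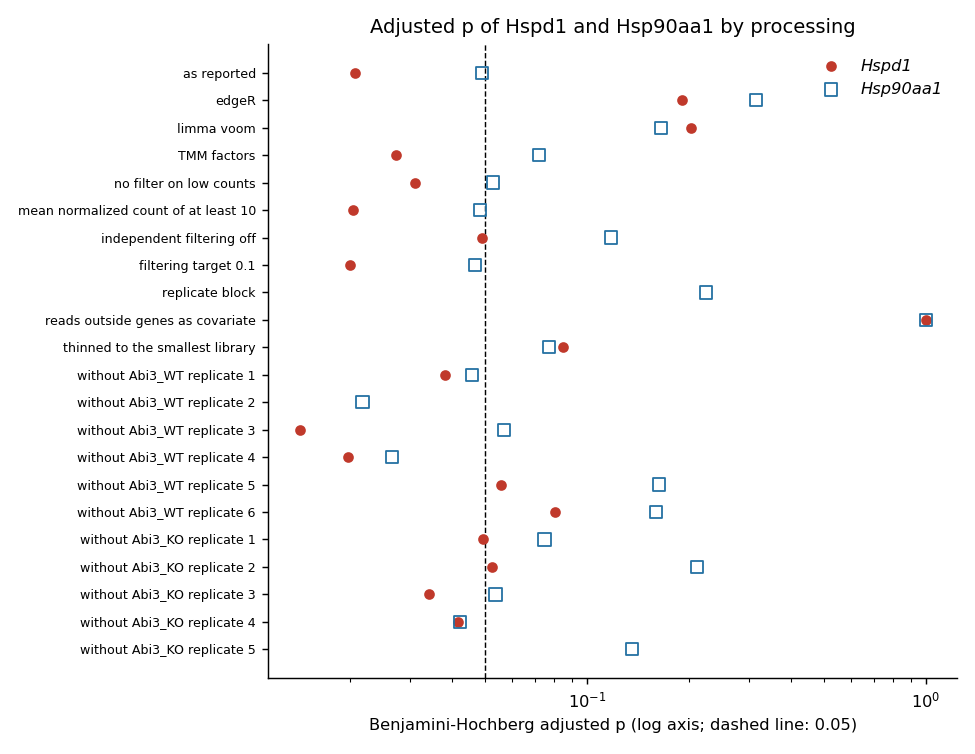
Adjusted p (log axis, dashed line at 0.05) of Hspd1 (filled red circles) and Hsp90aa1 (open blue squares) as reported and under each alternative processing, with no point where DESeq2 gave no adjusted p. Hspd1 lies left of the line in most DESeq2 settings. Hsp90aa1 lies right of it in most of them, at up to 0.224 apart from the covariate fit. Both lie right of it in edgeR and limma voom (0.165 to 0.314) and with reads outside genes as a covariate (0.999986).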

How the data were processed

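RNA of cerebral cortex was sequenced by QuantSeq FWD in 11 mice. According to the study's methods, the authors trimmed adapters and poly(A) with bbduk, aligned with STAR 2.7.3a to GRCm39 and counted reads per Ensembl gene by strand with HTSeq 0.9.1. The deposited values are raw counts, and no collapsing of PCR copies is stated, so the floor of 3 reads covers counting error only, while fold change intervals come from the fit across animals. By the counter's default a read aligned to several places is dropped, which makes genes with near-identical copies uncertain. Names came from GENCODE vM39 (52610 of 53700 identifiers, 98.0%).

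Genotype was tested with DESeq2 1.42.0 (R 4.3.3) in genes with at least 10 counts in all and a mean of at least 1.5, at an adjusted p of 0.05, as the study did. The independent filter was aimed at 0.05, a setting the methods do not give, and genes under a mean of 70.4 got no adjusted p. edgeR 4.0.16, limma 3.58.1, TMM factors, other filters, a replicate block, a covariate, thinning to 3202310 reads and leaving out each animal were alternatives. The test was checked on simulated counts. Animals, not cultures, are the replicates, and replicate numbers did not pair them: same-number correlations of deviations were -0.02 to 0.12.

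The 10 genes and the other lists were chosen with earlier results of these data known. Named were the 10 genes, Abi3, Hspa1a, in each other list the genes called and the 4 with the smallest unadjusted p, and the 3 genes most correlated with each of the 10. A few genes that this rule names are not reported here. Promoters came from a RefSeq table (GRCm38.p6), were placed on GRCm39 by exact match, and covered 7 of the 10.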

Additional observations from a re-analysis of the deposited data

Results flagged for a closer look

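In 30 groups of animals (13 genes and 2 measures of the libraries, in 2 genotypes), 2 held an animal whose gap to the others passed Dixon's 95% limit, where chance alone gives about 1 in 20, or 1.5 groups. Dnaja1 had 332.3 normalized reads in Abi3_WT replicate 4, and the next animal of that genotype had 277.2. Hspa1a had 38.1 normalized reads in Abi3_WT replicate 2, and the next had 21.96.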

How the results depend on the processing

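Genes called by DESeq2 (95 of all) numbered 37 in edgeR, 20 in limma voom, 57 with independent filtering off, 33 with the replicate block, 3 with reads outside genes as a covariate, and 46 to 120 with 1 animal left out. Of the 10 chaperone genes, 2 were called as reported, 0 in edgeR, limma voom, the replicate block (which leaves out Abi3_WT replicate 6), the covariate and libraries thinned to the smallest total of reads in genes, 1 with TMM factors, without a filter on low counts and with independent filtering off, and 0 to 2 with 1 animal left out. The cause was not tested. In the wider lists 0 genes were called under each alternative except for 1 without Abi3_WT replicate 2 and without Abi3_KO replicate 1, 3 or 4 (range 0 to 1). With the replicate block the log2 fold change was 0.19 for Hsp90aa1 (adjusted p = 0.224) and 0.22 for Hspa4, and Hspd1 got no adjusted p there (0.40), nor without Abi3_WT replicate 2 (0.42) or Abi3_KO replicate 5 (0.40). With the covariate, Hsph1 turned to -0.14 and Hspa1b to -1.30, Hspa8 moved from 0.52 to 0.03, Hsp90ab1 from 0.15 to 0.05, Hsp90aa1 from 0.23 to 0.11, Dnaja1 from 0.20 to 0.10 and Hspa5 from -0.01 to -0.59, and the sign of Hspa5 varied from -0.0952 to 0.0682 with 1 animal left out. The sign was otherwise kept in these alternatives. Hspa1b rests on 0 to 43 reads per animal.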
